A study of Mus musculus with 16 samples.

Results

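The phagocyte genes Cybb, Mpeg1, Fcgr1, Fcer1g, Sirpa and Ear2 were followed through the livers of 16 male C57BL6 mice. They were chosen by name, as the rows of the deposited tables that carry these 6 symbols, and all 6 were listed for both genotypes, out of 5205 genes listed in all. The mice formed 4 groups of 4: TSP1F/F mice on the LF (low-fat) diet, TSP1F/F mice on the AMLN diet (rich in fat, fructose and cholesterol and used to bring on steatohepatitis), and TSP1ΔPf4 mice on either diet, each for 32 weeks. Both genotypes carry a floxed thrombospondin 1 gene. TSP1ΔPf4 mice also carry Pf4-Cre, which is used to delete genes in megakaryocytes and platelets; whether other liver cells lost TSP1 was not tested here. The TSP1F/F mice are littermate controls that the labels call WT (TSP1ΔPf4 mice are labelled KO). Whole-liver RNA was sequenced, so fewer cells of a type cannot be told apart from less RNA per cell. Both genotypes are listed in the materials as 8 weeks old, without the point of the experiment to which that age refers.

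Phagocytes bind, engulf and destroy particles, and the 6 genes cover successive steps of that work. Fcgr1 encodes the high-affinity receptor for IgG (CD64), and Fcer1g encodes the common gamma chain, which carries an ITAM (an activating tyrosine motif) and passes the signal of Fcgr1 and other receptors to the kinase Syk. Sirpa encodes the receptor for CD47, whose inhibitory ITIM motifs recruit phosphatases and restrain engulfment. Cybb encodes gp91phox, the catalytic membrane subunit of the phagocyte NADPH oxidase, which makes superoxide. Mpeg1 encodes perforin-2, a pore-forming protein of macrophages that acts on engulfed bacteria. Ear2 encodes a ribonuclease of the eosinophil-associated family, a family that in mice is also expressed by macrophages. In the liver these genes are known from Kupffer cells, the resident macrophages, and from macrophages that arise from blood monocytes.

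The promoters of the 5 genes held by the RefSeq promoter table used here (GRCm38.p6, 250 bases before to 50 bases after each start) were searched on both strands for GAGGAA, a core bound by the myeloid factor PU.1, and for TTCNNNGAA, the core bound by STAT factors. Fcgr1 held both cores and Cybb held GAGGAA, and these 2 stretches are shown because no other promoter of the set held either core. Sirpa was not searched. Capitals mark the cores, and GAGGAA is read here as its reverse complement because both copies lie on the opposite strand.
Fcgr1 promoter, chr3:96293970-96294119, minus strand, the 150 bases before the start: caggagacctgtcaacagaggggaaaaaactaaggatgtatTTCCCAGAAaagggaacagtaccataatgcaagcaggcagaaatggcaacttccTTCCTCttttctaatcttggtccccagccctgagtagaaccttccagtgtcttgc
Cybb promoter, chrX:9469305-9469424, minus strand, 100 bases before the start and the first 20 bases of the transcript: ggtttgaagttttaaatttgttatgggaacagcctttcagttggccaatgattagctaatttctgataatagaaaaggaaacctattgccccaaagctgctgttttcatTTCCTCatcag
In Fcgr1 the STAT core lay from 109 to 101 bases before the start and GAGGAA from 55 to 50 bases before it. In Cybb GAGGAA covered bases 10 to 15 of the RefSeq transcript, whose start lies inside the gene's annotated span. GAGGAA was found in 28.3% and TTCNNNGAA in 8.30% of all 32851 windows of this length, and in 30.7% and 7.43% of the 727 windows of genes listed for both genotypes. A match of these letters is a description and not a binding site.

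The library totals ran from 17127965 to 39753019 counts, and the 6 genes had from 15 to 8026 counts in a mouse. Levels are given as CPM (counts scaled to a common library total) in the order of replicates 1 to 4, and as FPKM, which also divides by transcript length, where genes are compared with each other. The tables list only genes that the authors had selected at an unadjusted p-value under 0.05 for the diet, so a small p-value for the diet is not independent evidence here, and every comparison runs over selected genes. Genes with an absolute log2 fold change over 0.25 and an adjusted p under 0.05 were called. Adjusted p-values are those of edgeR (quasi-likelihood F test, Benjamini-Hochberg) unless another tool is named. Standard errors (SE) were worked back from that test, as the absolute log2 fold change divided by the square root of F. All 6 genes passed the filter on low counts in every comparison. Thbs1, the deleted gene, was listed for TSP1F/F mice only, so it does not check the genotype labels here.

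In TSP1F/F livers 5 of the 6 genes rose on the AMLN diet, where 2.39% of the 2096 genes tested were called higher. Fold changes ran from 3.43-fold for Fcer1g, which was not called, to 11.0-fold for Ear2. Their median log2 fold change was 2.55 (range 1.78 to 3.46), against 1.15 for all genes tested. In TSP1ΔPf4 livers 2 of the 6 genes were called, Cybb and Mpeg1, where 1.46% of 3089 genes were called higher, and the median over the 6 was 1.43 (0.79 to 1.61) against -0.54 for all genes. On the AMLN diet 3 of the 6 genes, Fcgr1, Sirpa and Ear2, were lower in TSP1ΔPf4 than in TSP1F/F livers, where 8.46% of 733 genes were called lower, and the median was -1.11 (-1.60 to -0.73) against -0.38. On the LF diet none of the 6 was called. The diet comparison in TSP1F/F livers and the genotype comparison on the AMLN diet share the AMLN-fed TSP1F/F mice. Mice of the diets did not overlap for 6 of 6 genes in TSP1F/F and 5 of 6 in TSP1ΔPf4 livers, where 36.6% and 20.4% of all genes tested were higher without overlap, and the AMLN-fed genotypes did not overlap for 5 of 6, where 12.4% of all genes were lower without overlap.

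**Figure D1:**
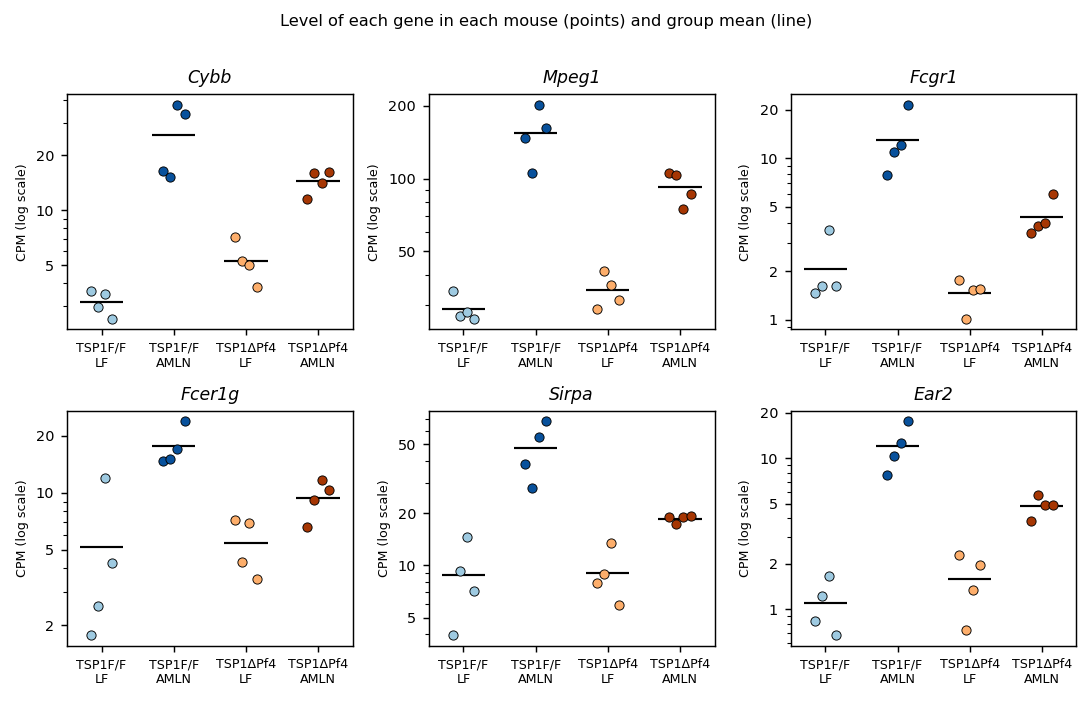
Level of each of the 6 genes in CPM (vertical axis, log scale) in each mouse (points) of the 4 groups, with group means (lines). For every gene but Cybb, all AMLN-fed TSP1ΔPf4 mice lie below all AMLN-fed TSP1F/F mice, and the LF-fed TSP1F/F mouse with 12.02 CPM of Fcer1g stands above the other 3.

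Fcgr1 (ENSMUSG00000015947; chromosome 3 of mm10, 96282909 to 96293969, minus strand, 6 exons) had 1.46, 1.61, 3.58 and 1.61 CPM in the LF-fed TSP1F/F mice and 7.84, 11.0, 12.1 and 21.5 CPM in the AMLN-fed TSP1F/F mice. In TSP1ΔPf4 mice it had 1.75, 1.01, 1.52 and 1.54 CPM on the LF diet and 3.44, 3.82, 3.99 and 5.99 CPM on the AMLN diet. The 2 diets did not overlap in TSP1F/F mice, and each AMLN-fed TSP1ΔPf4 mouse was below each AMLN-fed TSP1F/F mouse. The means were 2.07 ± 1.01 and 13.1 ± 5.86 CPM (SD, n = 4 each) in TSP1F/F mice, a log2 fold change of 2.66 (SE 0.46, adjusted p = 0.0435). In TSP1ΔPf4 mice they were 1.46 ± 0.313 and 4.31 ± 1.14 CPM, with a log2 fold change of 1.56 (SE 0.33) that was not called (adjusted p = 0.0600). Between the genotypes on the AMLN diet the log2 fold change was -1.60 (SE 0.37, adjusted p = 0.0182), which made Fcgr1 the member with the largest fall.

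Fcer1g (ENSMUSG00000058715; chromosome 1 of mm10, 171229572 to 171234365, minus strand, 5 exons), the signalling partner of Fcgr1, had the widest spread in the LF-fed TSP1F/F mice. It had 1.77, 2.52, 12.02 and 4.28 CPM there and 14.7, 15.2, 17.0 and 23.9 CPM in the AMLN-fed TSP1F/F mice. The TSP1ΔPf4 mice had 7.17, 4.30, 6.89 and 3.50 CPM on the LF diet and 6.57, 9.21, 11.6 and 10.3 CPM on the AMLN diet. The diets did not overlap in TSP1F/F mice but overlapped in TSP1ΔPf4 mice, and on the AMLN diet all 4 TSP1ΔPf4 mice were below all 4 TSP1F/F mice. The difference between the diets was not called in either genotype, with a log2 fold change of 1.78 (SE 0.54, adjusted p = 0.243) in TSP1F/F and 0.79 (SE 0.30, adjusted p = 0.187) in TSP1ΔPf4 livers. Without replicate 3 of the LF-fed TSP1F/F mice the first of these was 2.62 and called. Between the genotypes on the AMLN diet it was -0.91 (SE 0.30, adjusted p = 0.0854), and with replicate numbers taken as pairs it stayed at -0.91 with an adjusted p = 0.0383.

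Sirpa (ENSMUSG00000037902; chromosome 2 of mm10, 129592835 to 129632228, plus strand, 10 exons) had 3.97, 9.33, 14.6 and 7.13 CPM in the LF-fed and 38.6, 28.1, 55.0 and 67.7 CPM in the AMLN-fed TSP1F/F mice. In TSP1ΔPf4 mice it had 7.91, 8.89, 13.5 and 5.89 CPM on the LF diet and 19.1, 17.2, 19.0 and 19.2 CPM on the AMLN diet. The AMLN-fed TSP1ΔPf4 mice were closer to each other than in any other group of this gene, with a coefficient of variation of 5.03% against 37.0% in the AMLN-fed TSP1F/F mice, and all 4 lay below the 28.1 CPM of the lowest AMLN-fed TSP1F/F mouse. Sirpa rose on the AMLN diet from 8.74 ± 4.46 to 47.4 ± 17.5 CPM (SD, n = 4) in TSP1F/F mice, a log2 fold change of 2.44 (SE 0.42, adjusted p = 0.0442). In TSP1ΔPf4 mice the means were 9.04 ± 3.21 and 18.6 ± 0.937 CPM, a log2 fold change of 1.04 (SE 0.26, adjusted p = 0.0778). The log2 fold change between the genotypes on the AMLN diet was -1.35 (SE 0.30, adjusted p = 0.0182).

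Cybb (ENSMUSG00000015340; chromosome X of mm10, 9435252 to 9487771, minus strand, 15 exons) had 3.60, 2.95, 3.47 and 2.55 CPM in the LF-fed TSP1F/F mice, and 16.4, 15.1, 37.7 and 33.8 CPM in the AMLN-fed ones. In TSP1ΔPf4 mice it had 7.12, 5.27, 5.02 and 3.82 CPM on the LF diet and 11.5, 16.1, 14.1 and 16.1 CPM on the AMLN diet. Cybb was the only member with no overlap between the genotypes on the LF diet, where every TSP1ΔPf4 mouse was above every TSP1F/F mouse, as held for 3.44% of 640 genes tested, and the only member whose genotypes overlapped on the AMLN diet. The oxidase subunit rose on the AMLN diet in both genotypes, with a log2 fold change of 3.03 (SE 0.38, adjusted p = 0.0138) in TSP1F/F livers and 1.44 (SE 0.25, adjusted p = 0.0409) in TSP1ΔPf4 livers. The genotypes differed by 0.76 on the log2 scale on the LF diet (SE 0.34, unadjusted p = 0.0467 in edgeR, adjusted p = 0.676) and by -0.84 on the AMLN diet (SE 0.34, adjusted p = 0.145), and neither was called.

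Mpeg1 (ENSMUSG00000046805; chromosome 19 of mm10, 12460779 to 12465284, plus strand, 2 exons) had 34.2, 27.1, 28.0 and 26.4 CPM in the LF-fed and 147, 106, 202 and 162 CPM in the AMLN-fed TSP1F/F mice. Those of TSP1ΔPf4 mice were 29.0, 41.4, 36.3 and 31.5 CPM on the LF diet and 105, 104, 75.1 and 86.8 CPM on the AMLN diet. The lowest AMLN-fed TSP1F/F mouse (106 CPM) and the highest AMLN-fed TSP1ΔPf4 mouse (105 CPM) were nearly level, although the groups did not overlap. Mpeg1 rose on the AMLN diet in both genotypes, by a log2 fold change of 2.42 (SE 0.26, adjusted p = 0.0118) in TSP1F/F livers and 1.42 (SE 0.21, adjusted p = 0.0316) in TSP1ΔPf4 livers. Its difference between the genotypes on the AMLN diet, -0.73 on the log2 scale (SE 0.27, adjusted p = 0.116), was the smallest of the 6 and was not called.

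Ear2 (ENSMUSG00000072596; chromosome 14 of mm10, 44102654 to 44103534, plus strand, 2 exons) had the largest fold of the 6 on the diet. It had 0.835, 1.23, 1.65 and 0.675 CPM in the LF-fed and 7.78, 10.4, 12.7 and 17.5 CPM in the AMLN-fed TSP1F/F mice. In TSP1ΔPf4 mice it had 2.28, 0.725, 1.34 and 1.96 CPM on the LF diet and 3.84, 5.67, 4.91 and 4.91 CPM on the AMLN diet. Diets did not overlap in either genotype, and on the AMLN diet the genotypes did not overlap. The log2 fold change on the diet was 3.46 (SE 0.44, adjusted p = 0.0138) in TSP1F/F livers and 1.61 (SE 0.38, adjusted p = 0.0661) in TSP1ΔPf4 livers, and between the genotypes on the AMLN diet it was -1.32 (SE 0.33, adjusted p = 0.0272). The last call was lost with TMM scaling (-1.02, adjusted p = 0.0791), with DESeq2 (-0.95, DESeq2 adjusted p = 0.0561) and with all 16 mice in a single fit (-1.32, adjusted p = 0.0526). The Ear2 values are uncertain in their source, because its transcript is 96.4% identical to that of Ear1 and 94.5% to that of Ear10, neither of which is listed, and because the annotated non-coding gene Gm49101 overlaps its exons on the opposite strand and the strand setting of the counting is not given in the sources used here.

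**Figure D2:**
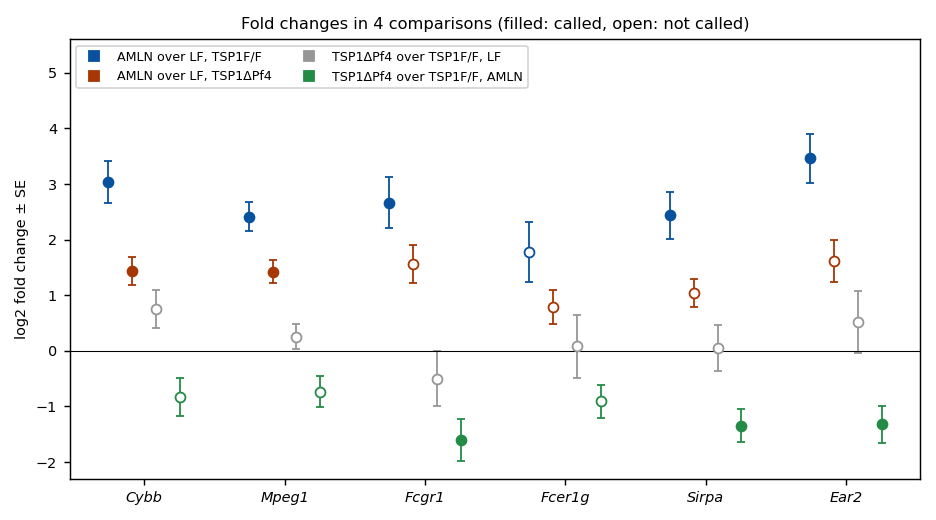
Log2 fold change (vertical axis) with its standard error for each gene in 4 comparisons, n = 4 mice per group. Filled points were called; the diet folds in TSP1F/F livers lie between 1.78 and 3.46, those in TSP1ΔPf4 livers between 0.79 and 1.61, and the genotype differences on the AMLN diet between -1.60 and -0.73.

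The difference in diet response between the genotypes was tested as an interaction, over 734 genes. Its estimate was negative for all 6 genes, from -1.85 for Ear2 and -1.59 for Cybb to -0.99 for Mpeg1 and Fcer1g, but none of the 6 was called, where 0.409% of the genes were called lower. The median over the 6 was -1.25, against -0.34 for all genes tested, so most of the genes tested leaned the same way. The lowest adjusted p was 0.0708, for Cybb, and 4 of the 6 genes had an unadjusted p under 0.05 in edgeR. Of all 734 genes, 94 were lower and 16 higher at that unadjusted limit. In CPM, the increase of the group mean from the LF to the AMLN diet in TSP1ΔPf4 mice was 24.8% of that in TSP1F/F mice for Sirpa, 25.9% for Fcgr1, 29.6% for Ear2, 31.6% for Fcer1g, 40.3% for Cybb and 46.4% for Mpeg1. The same percentage was not computed for other genes.

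On the LF diet the genotypes were tested over 640 genes, and edgeR called 0 of them (25 were higher and 19 lower at an unadjusted p under 0.05, and DESeq2 called 1). Of the 6 genes, Cybb alone had an unadjusted p under 0.05. The log2 fold changes of the others were 0.26 for Mpeg1, 0.09 for Fcer1g, 0.05 for Sirpa, 0.52 for Ear2 and -0.50 for Fcgr1. Their standard errors ran from 0.23 to 0.57 and none was called. The size of difference that 4 mice per group could detect was not computed.

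All of these calls rested on few mice. In TSP1F/F livers the number of members called for the diet was 0 without LF replicate 4, 1 without AMLN replicate 3, 6 without LF replicate 3 and 3 without any other mouse. In TSP1ΔPf4 livers it was 0 without LF replicates 2 or 4 or AMLN replicates 1, 2 or 3, 2 without LF replicate 1 or AMLN replicate 4, and 3 without LF replicate 3, while it was 5 with TMM scaling and 6 with DESeq2. For the genotypes on the AMLN diet it was 0 without TSP1ΔPf4 replicates 1, 2 or 3, 2 without TSP1ΔPf4 replicate 4 or TSP1F/F replicates 3 or 4, and 3 without TSP1F/F replicates 1 or 2. The estimates themselves moved less: with each mouse left out in turn, the genotype difference on the AMLN diet stayed between -1.80 and -1.26 for Fcgr1, between -1.53 and -1.12 for Sirpa and between -1.49 and -1.09 for Ear2. With replicate numbers taken as pairs, 4 of the 6 genes and 116 genes in all were called in this comparison, against 3 and 66 without. For the diet the same pairing took calls away. In TSP1F/F livers Cybb (adjusted p = 0.0878), Fcgr1 (adjusted p = 0.122), Sirpa (adjusted p = 0.0911) and Ear2 (adjusted p = 0.0878) lost their calls. In TSP1ΔPf4 livers Cybb (adjusted p = 0.1251) and Mpeg1 (adjusted p = 0.0882) lost theirs.

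Scaling shifted the genotype differences on the AMLN diet together with those of all genes. The median of all genes tested was -0.38 on library totals, -0.10 under TMM and -0.03 in DESeq2, and the split of higher and lower calls was 4 and 62, 11 and 37, and 17 and 56. Relative to that median the members lay at -1.22 for Fcgr1, -0.97 for Sirpa, -0.95 for Ear2, -0.53 for Fcer1g, -0.46 for Cybb and -0.36 for Mpeg1 with library totals. With DESeq2 the same values were -1.20, -0.93, -0.92, -0.52, -0.41 and -0.33, and all 6 genes were below zero under each scaling. For the diet in TSP1ΔPf4 livers the split was 45 higher and 47 lower on library totals, 160 and 38 under TMM and 1010 and 366 in DESeq2, and in TSP1F/F livers it was 50 and 2, 56 and 6, and 285 and 456.

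Per transcript length, Mpeg1 had the highest mean FPKM of the 6 genes in all 4 groups and Fcer1g the next. In the AMLN-fed TSP1F/F mice the FPKM were 35.6 ± 9.15 for Mpeg1, 20.2 ± 4.84 for Fcer1g, 16.8 ± 5.77 for Ear2, 9.64 ± 3.57 for Sirpa, 5.05 ± 2.27 for Fcgr1 and 4.44 ± 2.01 for Cybb (SD, n = 4). Neighbours in this order kept it in all 4 mice, except that Fcgr1 was above Cybb in 3 of 4, although the ranges of Fcer1g and Ear2 overlapped across mice. In the AMLN-fed TSP1ΔPf4 mice the order was Mpeg1 at 21.4 ± 3.33, Fcer1g at 10.8 ± 2.46, Ear2 at 6.72 ± 1.05, Sirpa at 3.79 ± 0.191, Cybb at 2.48 ± 0.377 and Fcgr1 at 1.66 ± 0.441, and each gene was above the next in all 4 mice. Fcgr1 was thus the lowest of the 6 in TSP1ΔPf4 mice and Cybb the lowest in TSP1F/F mice. On the LF diet Mpeg1 was above Fcer1g in 3 of 4 mice of either genotype, and Sirpa and Ear2 were close, with Ear2 above Sirpa in 2 of 4 TSP1ΔPf4 mice.

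**Figure D3:**
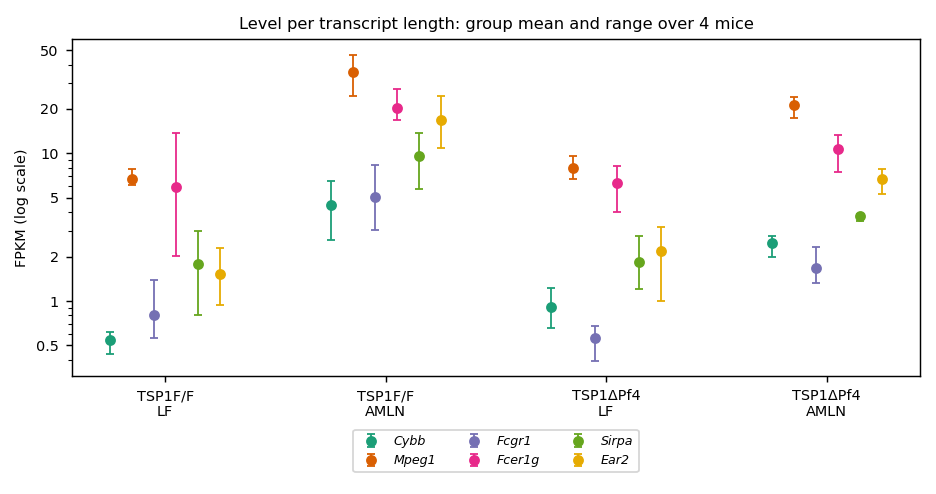
Mean FPKM (points, log scale) and the range over 4 mice (bars) of the 6 genes in each group. Mpeg1 is highest in every group, and Fcgr1 lies above Cybb in TSP1F/F mice (5.05 and 4.44 on the AMLN diet) and below it in TSP1ΔPf4 mice (1.66 and 2.48).

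The genes that work with the members were taken from 8 lists. Of the oxidase genes, Cybb and the small GTPase Rac2 (log2 fold change 2.96, called in 3 of 8 fits with a mouse left out) rose on the AMLN diet in TSP1F/F livers, while Cyba, the membrane partner of Cybb, stood at 1.88 and Ncf1 at 1.69, not called. In TSP1ΔPf4 livers 3 oxidase genes were tested and Cybb was called, with Ncf4 at 1.38 and Rac2 at 1.11. Their median there was 1.38, against -0.54 for all genes tested. Between the genotypes on the AMLN diet none of the 3 oxidase genes tested was called, and their median was -0.84.

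Of 16 Fc receptor genes 4 were tested in TSP1F/F livers and only Fcgr1 was called for the diet. The activating receptors Fcgr3 (2.27) and Fcgr4 (1.60) were not called. On the AMLN diet Fcgr1 was again the only one of 4 called between the genotypes, with Fcgr3 at -0.97 and Fcgr4 at -0.63 and a list median of -0.94. With replicate numbers taken as pairs 3 of the 4 were called, Fcgr3 (-0.89, adjusted p = 0.0499) and Fcer1g besides Fcgr1. In TSP1ΔPf4 livers 0 of 5 were called for the diet by edgeR, with Fcgr4 at 1.49 and Fcgrt, the neonatal Fc receptor, at -0.39.

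The ITAM signalling list, which holds receptors, adaptors, kinases and other genes of ITAM and related signalling, had 28 genes. In TSP1F/F livers 17 were tested and all 17 had a positive log2 fold change, with a median of 2.48 against 1.15 for all genes tested. Of all 2096 genes tested there, 1111 were higher and 569 lower at an unadjusted p under 0.05 in edgeR. From the list, 2 rose on the AMLN diet, the kinase Syk (2.75) and the lipid receptor Trem2 (4.71). The Syk call was lost whichever mouse was left out (called in 0 of 8 fits), and that of Trem2 was kept in 7 of 8. In TSP1ΔPf4 livers 11 were tested and none was called, with Syk at 1.37 and Trem2 at 1.96. On the AMLN diet 3 of 12 were lower in TSP1ΔPf4 than in TSP1F/F livers: Trem2 (-3.06), the beta-glucan receptor Clec7a, or Dectin-1 (-3.42), and Clec4e, or Mincle (-3.22). Trem2 and Clec7a were called in 8 of 8 fits with a mouse left out and Clec4e in 3 of 8, and with replicate numbers taken as pairs Pik3cd (-1.42, adjusted p = 0.0135) and Clec4n (-1.24, adjusted p = 0.0383) were called too. Clec7a had 50.2 to 478 CPM in TSP1F/F and 10.6 to 26.5 CPM in TSP1ΔPf4 mice on this diet. Clec4e was near the floor, with 0.877 to 8.44 CPM (3.13 ± 3.60, SD) in TSP1F/F and 0.082 to 0.689 CPM in TSP1ΔPf4 mice. The list median was -0.65, against -0.38 for all genes and 10 of the 12 genes were below it.

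Among 21 genes of the ITIM and CD47 list, 12 were tested in TSP1F/F livers and Sirpa was the gene called for the diet. All 12 had positive values and a median of 2.42, against 1.15 for all genes tested. On the AMLN diet 2 of 6 were lower in TSP1ΔPf4 livers, Sirpa and the collagen receptor Lair1 (-1.32), whose level went from 11.4 ± 5.34 in TSP1F/F to 4.56 ± 1.12 CPM in TSP1ΔPf4 mice. Lair1 was called in 2 of 8 fits with a mouse left out, and with replicate numbers taken as pairs Lilrb4a was called too (-2.18, adjusted p = 0.00325). Cd47, the ligand of Sirpa, was tested for the diet in TSP1ΔPf4 livers only and was not called (-0.48). Of 10 pore-forming genes 3 were tested for the diet in each genotype, and Mpeg1 was the only one called. The other 2 tested in each genotype were below zero. The list medians were -0.71 in TSP1F/F and -1.06 in TSP1ΔPf4 livers, against 1.15 and -0.54 for all genes. Of 18 ribonuclease genes, Ear2 was called for the diet in TSP1F/F livers among 3 tested, of which 2 were above zero. In TSP1ΔPf4 livers 2 of 5 were above zero and none was called. Between the genotypes on the AMLN diet Ear2 was again called among 3 tested, with Rnase6 at -0.68.

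Of 25 phagocytosis receptors, 14 were tested in TSP1F/F livers and 2 rose, the receptor kinase Axl (2.65), which binds dying cells through Gas6, and the integrin Itgax (5.47), the first called in 6 and the second in 0 of 8 fits with a mouse left out. In TSP1ΔPf4 livers 4 of 11 rose: Axl (1.12), the scavenger receptor Cd36 (1.13), the integrin chain Itgb2 (1.83) and the complement receptor Vsig4 (1.16). With a mouse left out, Itgb2 was called in 3, Cd36 and Vsig4 in 2 and Axl in 1 of 8 fits. Between the genotypes on the AMLN diet none of 11 was called, with values from -1.26 for C3ar1 to 1.62 for Cd163. The Cd163 value had an SE of 1.08, with a level near the floor in the AMLN-fed TSP1F/F mice (0 to 0.877 CPM). For the diet Cd163 stood at -3.71 in TSP1F/F and -1.79 in TSP1ΔPf4 livers, and neither was called. Of 19 myeloid transcription factors 6 and 4 were tested for the diet and none was called in either genotype, with Spi1, which encodes PU.1, at 2.48 (adjusted p = 0.0610) in TSP1F/F and 1.47 in TSP1ΔPf4 livers, and at -0.57 between the genotypes on the AMLN diet.

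**Figure D4:**
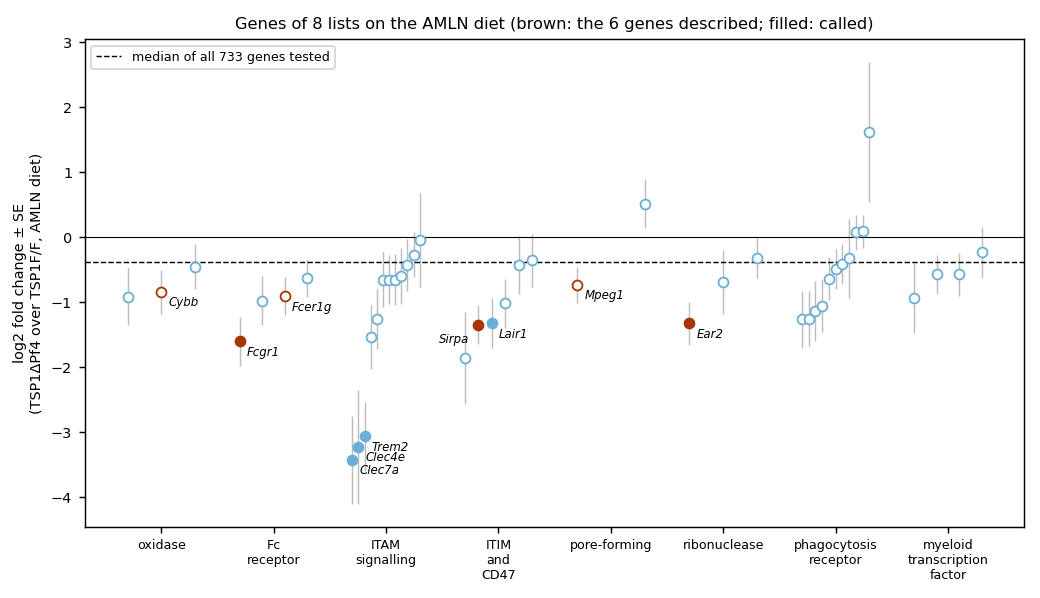
Log2 fold change with standard error (vertical axis, TSP1ΔPf4 over TSP1F/F on the AMLN diet) for each tested gene of the 8 lists, with the 6 genes in brown, called genes filled and the median of all 733 genes as a dashed line at -0.38. Trem2, Clec7a and Clec4e lie lowest, at -3.06 to -3.42, with Clec4e near the floor in level, and Fcgr1, Sirpa and Ear2 lie between -1.60 and -1.32.

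Markers of macrophages were detected in all 16 livers. For the diet 2 of 6 pan-macrophage markers were called higher in TSP1F/F and 1 of 5 in TSP1ΔPf4 livers. Of 6 pan-macrophage markers, 5 were listed for both genotypes (Adgre1, Csf1r, Cd68, Lgals3 and Cd14), none at 0 in any group, and their summed level ranged from 14.8 to 35.7 CPM on the LF diet and, on the AMLN diet, 73.5 to 159 CPM in TSP1F/F mice. The sum in TSP1ΔPf4 mice ranged from 20.1 to 35.7 CPM on the LF diet and from 57.1 to 82.2 CPM on the AMLN diet. On the AMLN diet 1 of the 5 was called lower in TSP1ΔPf4 livers, Lgals3 (-1.69), and with replicate numbers taken as pairs Cd68 was called as well (-0.97, adjusted p = 0.0376). Csf1r, the receptor for the macrophage growth factor M-CSF, did not share the direction of the members there: it had 31.5 ± 10.7 CPM in TSP1F/F and 35.6 ± 8.68 CPM in TSP1ΔPf4 mice, a log2 fold change of 0.18 (SE 0.31, adjusted p = 0.760), although it rose on the AMLN diet in both genotypes (2.40 and 1.79).

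When each gene was expressed as a percentage of the summed level of these 5 markers, a measure chosen after the values were seen and given without a test, the genotypes overlapped for some members and not for others. On the AMLN diet Fcgr1 stood at 8.49 to 14.9% in TSP1F/F mice and at 4.65 to 8.22% in TSP1ΔPf4 mice, and on the LF diet at 8.88 to 10.05% and 4.25 to 8.71%. The genotypes thus did not overlap on either diet, but the nearest mice were close (8.49 and 8.22%, 8.88 and 8.71%). Sirpa stood at 38.3 to 42.6% and 20.95 to 33.5% on the AMLN diet, and Ear2 at 8.42 to 14.1% and 6.16 to 6.90%, with no overlap there. Cybb stood at 17.8 to 26.6% and 17.7 to 22.1%, Mpeg1 at 102 to 160% and 94.3 to 184%, and Fcer1g at 11.99 to 20.7% and 11.2 to 14.6%, and these overlapped. This depended on the marker: as a percentage of Csf1r alone, none of the 6 overlapped between the AMLN-fed genotypes. Csf1r was singled out after the values were seen, and the share of other genes separated in this way was not computed. On the LF diet Csf1r was higher in each TSP1ΔPf4 mouse than in each TSP1F/F mouse (at least 9.03 against at most 7.88 CPM). Its log2 fold change there was 0.79 (SE 0.29, adjusted p = 0.624) and was not called. For Mpeg1 the nearest AMLN-fed mice were close (437 and 425%). Against Csf1r, Cybb stood at 50.1 to 135% in TSP1F/F and 35.3 to 47.2% in TSP1ΔPf4 mice, Mpeg1 at 437 to 648% and 197 to 425%, and Fcer1g at 36.8 to 95.4% and 20.2 to 30.6%. Fcgr1 stood at 23.9 to 85.8% and 8.39 to 17.5%, Sirpa at 118 to 271% and 37.8 to 77.4%, and Ear2 at 23.8 to 70.2% and 12.4 to 15.5%.

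**Figure D5:**
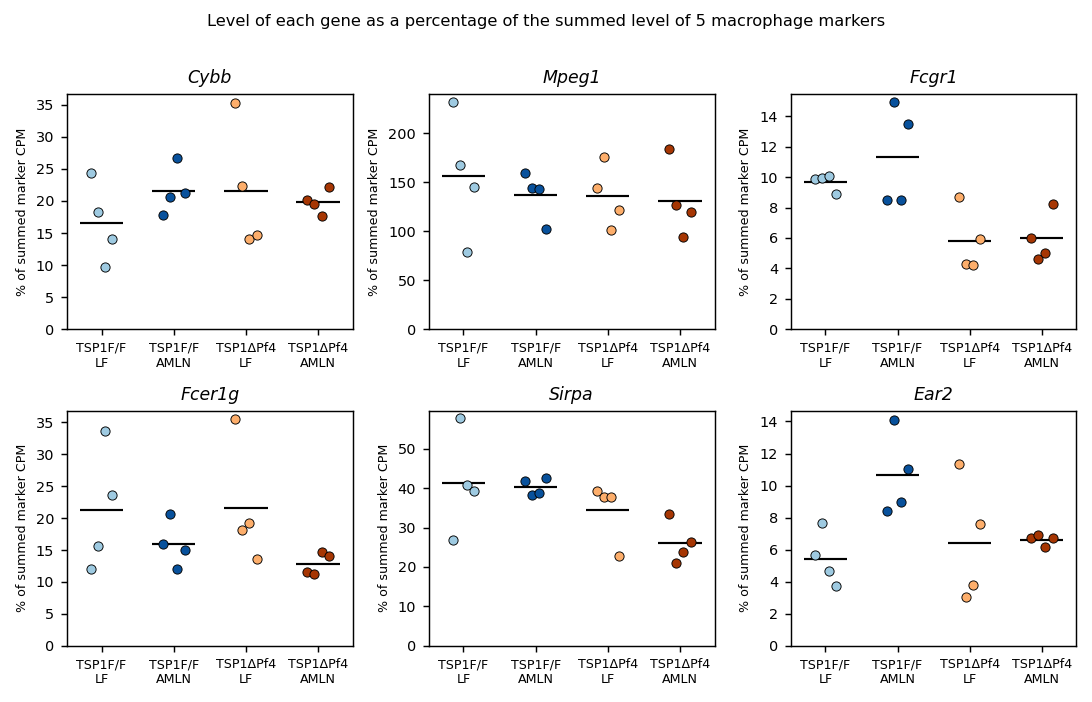
Each gene as a percentage of the summed CPM of Adgre1, Csf1r, Cd68, Lgals3 and Cd14 (vertical axis from 0) in each mouse (points), with group means (lines). For Fcgr1 all TSP1ΔPf4 mice lie below all TSP1F/F mice on the same diet, by narrow margins, while Mpeg1 and Cybb overlap between the genotypes.

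Other cell types were read from their own markers. Of 12 markers of monocyte-derived macrophages 8 were tested between the genotypes on the AMLN diet, where 8.46% of all 733 genes were called lower. In TSP1ΔPf4 livers 5 were called lower (Clec7a, Gpnmb, Lyz2, Mmp12 and Trem2), of which Clec7a and Trem2 are also in the ITAM signalling list. Ccr2 (-1.18, adjusted p = 0.152), Cx3cr1 (-0.99, adjusted p = 0.330) and Itgax (-1.13, adjusted p = 0.146) were below zero but not called. The summed levels of the 8 on this diet were 405 to 2311 CPM (median 575) in TSP1F/F and 116 to 220 CPM (median 135) in TSP1ΔPf4 mice. Of 13 Kupffer cell markers 8 were tested in this comparison and 1, Cd5l, was called lower (-1.31), beside the same 8.46% of all genes. With replicate numbers taken as pairs C1qb was called too (-0.91, adjusted p = 0.0257). Of the 8, 6 were below zero, while Csf1r (0.18) and Cd163 (1.62, near the floor) were above it. The 8 summed to 413 to 958 CPM in TSP1F/F and 277 to 346 CPM in TSP1ΔPf4 mice. Cd5l alone had means of 295 and 118 CPM in these mice. Of 6 eosinophil markers only Siglecf was listed, at 0 in every LF-fed mouse and at no more than 2.45 CPM in any mouse, and Epx, Prg2, Prg3, Ccr3 and Il5ra were not analysed here. Of 12 neutrophil markers 4 were listed, for TSP1F/F mice only, with sums of 0.992 to 2.63 CPM on the LF diet and 3.10 to 13.0 CPM on the AMLN diet, and Mmp8 was at 0 in every LF-fed mouse of this genotype. Of 10 T cell markers 2 were listed for both genotypes, with sums of 1.03 to 4.08 CPM in TSP1F/F and 0.6005 to 2.20 CPM in TSP1ΔPf4 mice on the AMLN diet, and of 8 dendritic cell markers 1 was listed for both, Itgax, at 3.15 to 9.71 and 1.97 to 4.13 CPM. Hepatocyte markers (3 of 9 listed for both) summed to 3175 to 6942 and 4829 to 6436 CPM, and endothelial markers (2 of 6) to 30.7 to 36.8 and 29.3 to 43.8 CPM, so these overlapped between the AMLN-fed genotypes. The part of these cell types in the members' values was not tested. Of 8 stellate cell markers 4 were tested between the AMLN-fed genotypes and Col3a1 was lower in TSP1ΔPf4 livers (-1.72, adjusted p = 0.0182), while Col1a1 (-0.08), Col1a2 (-0.14) and Pdgfrb (-0.07) were not called, and the 4 summed to 89.9 to 179 CPM in TSP1F/F and 27.2 to 113 CPM in TSP1ΔPf4 mice.

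Over the 16 mice the 15 pairs of members had Pearson correlations from 0.76 (Mpeg1 and Fcer1g) to 0.96 (Cybb and Mpeg1), a description in which all points share the diet groups. Of 673 genes listed for both genotypes with a mean of at least 1 CPM, those whose pattern was most like the mean of the 6 were Lpl (r = 0.98), Mmp12 (0.98), Lgals3 (0.97), Gpnmb (0.96) and Slc11a1 (0.96). The median r of all other genes was 0.60, and 57 genes had an r of 0.9 or more. Fcgr1 alone was most like Mmp12 (0.98), Clec7a (0.96) and Ccl6 (0.95), Sirpa like Mmp12 (0.96), Cd5l (0.96) and C1qb (0.96), Ear2 like Lpl (0.98), Slc11a1 (0.96) and Mmp12 (0.96), Cybb like Itgax, Iqgap1 and Cd180 (0.96 to 0.97), Mpeg1 like Soat1, Myo1f and Cyth4 (0.96 to 0.97), and Fcer1g like Sirpa, Lcp2 and Themis2 (0.91).

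Single mice carried part of the spread. Replicate 3 of the LF-fed TSP1F/F mice had the highest value of its group for Fcgr1, Fcer1g, Sirpa and Ear2, but not for Cybb and Mpeg1. Replicate 4 of the AMLN-fed TSP1F/F mice was highest for the same 4 genes, and replicate 3 of that group was highest for Cybb and Mpeg1. Replicate 1 of the AMLN-fed TSP1ΔPf4 mice was lowest for Cybb, Fcgr1, Fcer1g and Ear2 and highest for Mpeg1.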

How the data were processed

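Liver RNA of 16 mice (4 groups of 4) was measured by RNA-seq. Counts per gene, counts divided by a size factor (a normalised signal) and FPKM were deposited by the authors in 2 tables, 1 per genotype, of 2558 (TSP1F/F) and 3399 (TSP1ΔPf4) genes, with 752 in both. Per the paper the authors aligned reads with STAR to mm10, whereas the submitters' processing notes name HISAT2, DESeq2 and mm10. The counting program, annotation and strand setting are not given in the sources used here. The authors' deposited p-values were used only to read the selection limit and the number of genes adjusted over, and their fold changes were not used. All 48 columns of single mice were matched, and 0 were left unmatched.

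Library totals were recovered from counts, gene lengths and FPKM, since the tables hold selected genes only. Genes passing filterByExpr were tested with edgeR 4.0.16 (R 4.3.3, limma 3.58.1; quasi-likelihood test with a prior count of 0.125). Benjamini-Hochberg adjustment covered 16784 (TSP1F/F) and 13927 (TSP1ΔPf4) genes for the diet, and the genes tested for the genotypes and the interaction. The 2 tables share no mice, and the genotype comparisons used counts from both. Labels give replicate numbers but nothing that ties them to cages or litters. As a hint from the data, deviations of same-numbered AMLN-fed mice of the 2 genotypes correlated at 0.22, 0.14, 0.28 and 0.29. For that comparison a fit with the numbers as pairs is therefore given beside the fit without them. Values printed are from the fit without the block, and the blocked value is given where it changed a call or a count. In the other comparisons at least 1 pair was under 0.1.

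The members and lists were chosen with earlier results of these data known. Named were the 6 members, list genes called (the 3 largest where more than 4 were), and the genes most alike (5 for the mean of the members' standardised log CPM, 3 per member). Other genes were named after their values were seen. A gene of the oxidase list is not reported here, nor are that list's counts and median in TSP1F/F livers. Alternatives were DESeq2 1.42.0, TMM, no filter, a replicate block, other scalings and adjustments, all 16 mice in 1 fit and each mouse left out. The scripts were tested on simulated data. Transcript lengths and coordinates were compared with GENCODE M21, and promoters are from RefSeq (GRCm38.p6). A planned search of protein motifs was not run, since protein sequences were not used here. Intervals from counting error were not used, and the spread between mice sets the precision.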

Additional observations from a re-analysis of the deposited data

Results flagged for a closer look

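Each of the 6 genes was examined in each of the 4 groups (24 groups of 4 mice) for a mouse whose gap to its neighbour exceeded Dixon's critical share of the group's range, and 2 were found, where about 1 in 20 groups shows such a gap by chance. In LF-fed TSP1F/F mice replicate 3 had 3.58 CPM of Fcgr1 while the others had 1.46 to 1.61, and the gap was 0.928 of the range. In AMLN-fed TSP1ΔPf4 mice replicate 2 had 17.2 CPM of Sirpa while the others had 19.0 to 19.2, a gap of 0.901 of a narrow range.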

How the results depend on the processing

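The tables hold selected genes, so the spread shared between genes and the scaling rest on them, and p-values are limited by 4 mice per group. Under the settings other than leaving out a mouse, 152 of 174 values of the members kept direction and side of the threshold, 13 were newly called, 9 lost their call and 0 changed direction. Genes called for the diet in TSP1F/F livers numbered 52, and 741 with DESeq2, 83 with no filter on low counts and 1124 adjusted over the listed genes only. In TSP1ΔPf4 livers they numbered 92, and 1376 with DESeq2, 198 with TMM and 2187 adjusted over the listed genes only, with 6, 5 and 6 members called in place of 2. For the genotypes DESeq2 called 1 gene on the LF diet, and for the interaction 44 with DESeq2, 15 with TMM and 8 with the authors' size factors across tables (a setting chosen after seeing the data) in place of 3. The cause of these changes was not tested, except that fewer genes in the adjustment lower each adjusted p.

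With the replicate number as a block, genes called numbered 10 (1 member) for the diet in TSP1F/F and 4 (0 members) in TSP1ΔPf4 livers, 116 (4 members) for the genotypes on the AMLN diet, 0 on the LF diet and 0 for the interaction. Same-numbered mice correlated at -0.28 to 0.16 and -0.41 to 0.20 across the diets and at -0.03 to 0.42 between LF-fed genotypes. A mouse correlated best with its own number in 1, 0, 3 and 1 of 4 numbers in the diet in TSP1F/F, the diet in TSP1ΔPf4, the genotypes on AMLN and the genotypes on LF.

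With each mouse left out in turn, genes called ranged from 2 to 61 and members from 0 to 6 for the diet in TSP1F/F, from 1 to 182 and 0 to 3 in TSP1ΔPf4, from 22 to 84 and 0 to 3 for the genotypes on the AMLN diet, 0 throughout on the LF diet, and from 0 to 24 and 0 to 1 for the interaction. The genotype difference on the LF diet changed sign for Fcer1g (-0.20 to 0.93) and Sirpa (-0.21 to 0.41).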
